A study of Mus musculus with 12 samples.

Results

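The wild-type baseline of mouse outer kidney cortex is described here from 6 of the 12 RNA-seq libraries of a study of kidney cortex in transgenic and wild-type mice. The members were chosen by genotype label alone and come from 3 animals, WT1, WT2 and WT3, each with a library from kidney 1 and a library from kidney 2. All 3 were male C57BL/6 mice, labelled wild type and untreated, and kept under standard conditions, and their ages are not given. The other 6 libraries come from mice with a HIF2α transgene (γ-HIF2αM3 TG+) and are not compared here. A thin slice from the outer face of the cortex was taken from each kidney, so a library holds a mixture of all cells in that slice. The labels do not say what separates kidney 1 from kidney 2, nor when each animal was dissected or its library made. Animal, time of dissection and library preparation therefore cannot be told apart in any difference between animals.

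The outer cortex holds the glomeruli, where blood is filtered, and most of the proximal tubule, which takes back glucose, amino acids, phosphate and filtered protein. The proximal tubule is divided along its length into S1, S2 and S3. It burns fat in abundant mitochondria, makes glucose in fasting and secretes organic anions and drugs. Behind it follow the thin limb, the thick ascending limb, the distal convoluted tubule, the connecting tubule and the collecting duct, whose principal cells take up water and salt and whose intercalated cells secrete acid or base. In a male mouse the proximal tubule also responds to androgen.

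The libraries held 25641109 to 36742227 counts, and the animals 51309463, 65101936 and 66566563. Levels are given as CPM, the read count over the TMM-scaled library total, and means ± SD are over the 3 animals with both kidneys summed. A mean of at least 1 CPM was reached by 15882 genes, at least 100 CPM by 1832 and at least 1000 CPM by 76. Just 629 genes held 50% of all counts. Genes of the mitochondrial genome took 11.16 ± 0.523% (10.88%, 10.83% and 11.76% in WT1, WT2 and WT3). Several of these genes, named below, had almost no counts, so this share of counts is not read as their share of RNA. As a check of the male label, the Y-linked gene Ddx3y stood at 65.5 to 67.6 CPM per animal and Xist at 0.185 CPM or less. Counts of kidneys of one animal differed by 3.60 to 7.51 chi-square units per degree of freedom and those of different animals by 16.0 to 26.1, so no library repeated another. Across 15808 genes, Pearson's r of log2 CPM was 0.995 to 0.997 in the 3 pairs within an animal and 0.987 to 0.993 in the 12 pairs between animals, a description over genes that are not independent.

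Proximal tubule genes led the nuclear transcripts. The promoters of 3 of them are shown because each holds the letters GTTAAT, part of the site of HNF1, a transcription factor of the proximal tubule. They encode the phosphate transporter Slc34a1, the organic anion transporter Slc22a6 and Pck1, which commits carbon to glucose synthesis. Each line gives the 250 bases before the RefSeq start site, 5′ to 3′ on the gene's strand, in GRCm38.p6, with the motif or its reverse complement ATTAAC in capitals (chr13:55399398-55399647, plus strand; chr19:8617746-8617995, plus strand; chr2:173152823-173153072, plus strand).
Slc34a1: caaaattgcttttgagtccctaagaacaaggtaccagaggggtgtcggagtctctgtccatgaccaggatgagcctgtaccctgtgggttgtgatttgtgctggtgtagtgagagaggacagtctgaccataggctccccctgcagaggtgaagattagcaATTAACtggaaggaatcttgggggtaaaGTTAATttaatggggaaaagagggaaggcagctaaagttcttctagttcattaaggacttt
Slc22a6: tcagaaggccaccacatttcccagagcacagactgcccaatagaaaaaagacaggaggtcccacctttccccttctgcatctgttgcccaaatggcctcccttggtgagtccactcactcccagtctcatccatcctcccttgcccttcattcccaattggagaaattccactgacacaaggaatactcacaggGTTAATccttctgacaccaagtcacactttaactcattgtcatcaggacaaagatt
Pck1: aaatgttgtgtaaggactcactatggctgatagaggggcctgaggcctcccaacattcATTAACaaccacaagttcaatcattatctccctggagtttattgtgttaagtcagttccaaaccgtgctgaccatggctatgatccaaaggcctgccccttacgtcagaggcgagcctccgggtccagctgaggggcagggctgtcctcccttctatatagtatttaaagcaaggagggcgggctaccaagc
Searched on both strands from 250 bases before to 50 bases after the start, GTTAAT lay in 8 of the 42 promoters of the proximal tubule lists (19.0%), in 15% of the 60 promoters of the 100 genes with the highest level per length, and in 7.1% of all 32851 promoters of the table. The RefSeq table matched 30 of 37 proximal tubule genes and 53 of those 100. CAAAGTCCA, searched for HNF4, lay in 1 of the 42, that of Pdzk1 (2.38%, beside 0.475% of all), and in 0 of the 60. A match describes the letters and is not a binding site.

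Levels of different genes were compared per kilobase (kb), as CPM per kb of the gene length implied by the deposited RPKM. That length exceeded 2 times the longest GENCODE M21 transcript in 41.7% of matched genes, so the level on the longest M21 transcript is given after it. The highest mean was 22173 CPM per kb for mt-Cytb, which encodes cytochrome b of complex III (24565 on the reference length). Kap, an androgen-regulated kidney gene, stood at 21565 CPM per kb (20546), close to mt-Cytb and above every other nuclear gene on both lengths. Gpx3, the glutathione peroxidase that the kidney secretes into plasma, had 7629 CPM per kb (16521). Slc34a1 had 1071 CPM per kb (1836), below Gpx3 on both lengths. The iron-storage gene Fth1 had 3012 CPM per kb (1934) and Gpx1, the cytosolic glutathione peroxidase, 1630 (1427).

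Several values are uncertain. The mitochondrial genes mt-Co2, mt-Co3, mt-Atp6, mt-Nd3 and mt-Nd4l were at 0.108 CPM or less in every animal while mt-Co1, which encodes a subunit of the same enzyme as mt-Co2, had a mean of 15445 CPM. Gapdh stood at 66.7 ± 3.34 CPM and the globin gene Hba-a1 at 0.246 CPM or less. Genes of these kinds have near-identical copies or pseudogenes elsewhere in the genome, and no source used here says how the authors counted reads that fit several places. The part of such copies in these levels was not tested, and the levels are not read as expression. mt-Nd5 and mt-Nd6 overlap on opposite strands, as do Slc34a1 and Pfn3, Slc5a2 and BC017158, and Umod and Gm44588. Whether strand was used in counting is not given, so their reads cannot be told apart.

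RNA of every nephron segment was detected, with the proximal tubule ahead. For each of 12 segment lists the mean level of its markers per kb was taken as a share of the sum over the lists. The 4 proximal tubule lists held 78.59 ± 1.53% (79.4%, 76.82% and 79.54%). The proximal tubule entered with 4 of the 12 lists, which raises this sum. The list for all proximal tubule segments alone held 64.56%. The connecting tubule list held 12.56%, the thick ascending limb 5.13%, the distal convoluted tubule 1.72%, principal cells 0.956%, intercalated cells 0.601% and podocytes 0.374%. These are shares of marker RNA and not of cells, since in bulk tissue fewer cells of a type and less RNA per cell cannot be told apart. A few genes weigh heavily. With the highest marker of each list left out the 4 proximal lists held 67.84%. With the median marker in place of the mean they held 70.22%. The list for all segments alone then held 44.81% and 37.78%. In the list for all proximal tubule segments the highest marker was Kap, at 21565 CPM per kb, while the median marker stood at 233. The small shares moved more. The connecting tubule list held 22.51% without its highest marker and 16.83% by the median, and podocytes 0.8175% and 0.4916%. Intercalated cells held 1.627% and 2.895% and principal cells 1.869% and 1.615%, so the order of these lists depended on the summary. The connecting tubule value rests on Klk1, a secreted kallikrein, and S100g, a calcium-binding protein, at 851 and 598 CPM per kb (866 and 663 on the reference length). The thin limb list gave 0.0735% and the macula densa list 0.00644%. Sptssb and Slc14a2, markers of deeper thin limb, were at 0.0391 and 0.154 CPM or less per animal.

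**Figure D1:**
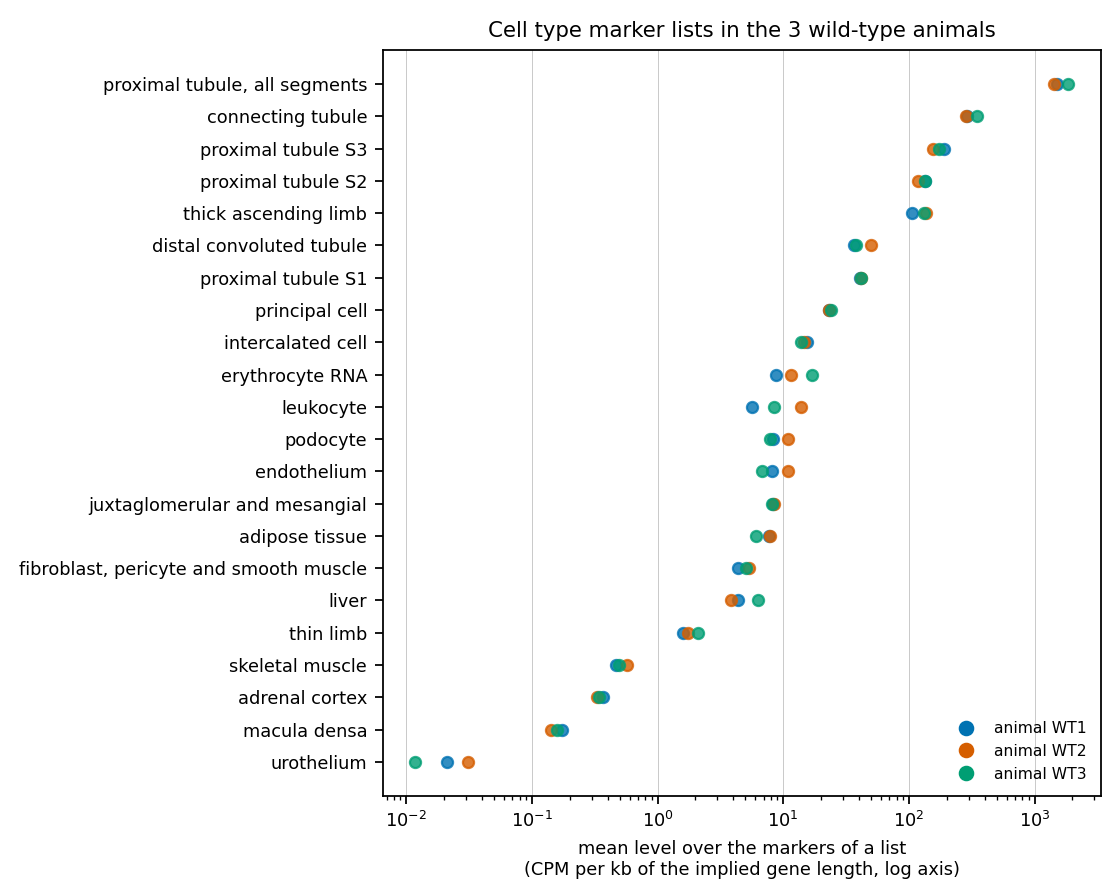
Mean level per kilobase of the markers of each cell-type list (CPM per kb of implied length, log axis) in WT1, WT2 and WT3, both kidneys summed. The list for all proximal tubule segments lies near 1591 CPM per kb, above every other list. Kap weighs heavily there, as the median marker is at 233. The 3 animals lie close together in most lists.

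The 6 segment markers were each detected in all 6 libraries. Slc34a1 had 6948 and 7114 CPM in the kidneys of WT1, 7259 and 7095 in WT2, and 7550 and 7875 in WT3. Its libraries differed little, and the difference among animals did not pass the test (edgeR adjusted p = 0.184). Lrp2, which encodes megalin, the receptor that takes up filtered protein, had 2527 and 2119, 1816 and 2346, and 2256 and 2301 CPM. The kidneys of one animal differed by as much as the animals did (edgeR adjusted p = 0.726). Slc5a2, the S1 glucose transporter SGLT2, had 537 and 704, 622 and 606, and 608 and 780 CPM, again with overlap between the animals (edgeR adjusted p = 0.768).

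Umod, which encodes uromodulin of the thick ascending limb, had 2081 and 1514 CPM in WT1, 2320 and 2455 in WT2, and 2589 and 2048 in WT3. WT1 kidney 2 was the lowest library, and the animals did not pass the test (edgeR adjusted p = 0.421). Slc12a3, the thiazide-sensitive salt transporter of the distal convoluted tubule, had 918 and 825, 1153 and 1219, and 938 and 874 CPM. Both kidneys of WT2 lay above all others (log2 difference WT2 minus WT1 of 0.45 ± 0.06, SE, edgeR adjusted p = 0.00015 among animals). Aqp2, the vasopressin-regulated water channel of principal cells, had 71.7 and 67.2, 82.3 and 78.0, and 112 and 96.0 CPM. Its 3 animals did not overlap, WT3 being highest (WT3 minus WT1 of 0.58 ± 0.07, edgeR adjusted p = 0.000397). Per kb, Slc34a1 (1071, or 1836 on the reference length) led the 6 markers, Umod (788, or 822) followed, and Aqp2 (53.8, or 59.4) was lowest.

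Within the proximal tubule, genes of all segments were present. The S2 gene Slc22a6, which takes up organic anions for secretion, had 371 ± 48.8 CPM per kb (415 on the reference length), and the S3 amino acid transporter Slc7a13 368 ± 18.9 (408). Acy3, an S3 aminoacylase, had 863 ± 105 CPM per kb (956). The S1 list was lower per length, with Slc5a2 at 89.1 ± 6.60 (283) and Slc7a8, a neutral amino acid exchanger, at 65.8 ± 5.39 (72). Oxygen-sensing genes were present at moderate levels. Epas1, which encodes HIF2α, had 177 and 212, 230 and 246, and 184 and 168 CPM, highest in WT2 (edgeR adjusted p = 0.0325). That call was lost without either WT2 library, without WT3 kidney 2, by limma and with library size alone. Arnt, the partner of HIFα, and Egln2, a HIF prolyl hydroxylase, were even, at 45.1 ± 0.419 and 65.7 ± 0.494 CPM. Of the 8 HIF pathway genes, Epas1 was the 1 called, and without WT2 or without WT3 edgeR called 0, with 0 and 3 at an unadjusted p under 0.05. Epo, made by interstitial cells under low oxygen, had 2.32 ± 0.496 CPM.

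Markers of cells outside the tubule were detected too. Podxl of podocytes had 39.8 ± 7.64 CPM per kb (60.7 on the reference length), Plvap of fenestrated endothelium 59.3 ± 17.1 (66.6), and Ren1, renin of juxtaglomerular cells, 26.5 ± 1.60 (61.7). Markers of neighbouring tissues were low, apart from some liver genes. Summed per animal, 3 adrenal markers reached 4.44 to 5.06 CPM, 4 muscle markers 3.03 to 3.71 and 8 liver markers 70.0 to 98.3. Cyp11a1 of the adrenal was at 0.0299 CPM or less per animal, the 4 urothelial markers summed to 0.239 CPM or less per library, and the muscle gene Myh4 had no read. Ahsg of liver was at 0.0149 CPM or less, while Ttr and Alb had 22.6 to 47.9 and 7.86 to 8.56 CPM.

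Fat markers set a single library apart. WT1 kidney 2 had 2.31 CPM of Adipoq, 4.66 of Cidec, 1.93 of Lep and 1.12 of Plin1, all products of fat cells. In the other 5 libraries these 4 genes had 0 to 0.099 CPM, and Lep and Plin1 had no read, which allows up to 0.0816 to 0.117 CPM (3 counts, counting error only). The 6 fat markers summed to 58.8 CPM in that library and to 26.5 to 43.7 CPM in the others, because Fabp4 and Car3 were present in all. How far fat RNA moved other values of that kidney was not tested.

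The 3 animals differed in many genes, mostly by small amounts. Kidneys of one animal served as the error of the test, so its calls speak of these 3 mice and not of wild-type mice at large. Of 18476 genes tested with edgeR's quasi-likelihood test, 4226 differed among the animals at an adjusted p under 0.05, which is 22.9%. A log2 ratio of at least 1 between highest and lowest animal was reached by 724 of them, 3.92% of genes tested. Over all genes tested the median log2 ratio was 0.217. Of the 4226 genes called, 1056 were highest in WT1, 1815 in WT2 and 1355 in WT3. Lowest were 1471 in WT1, 1537 in WT2 and 1218 in WT3. WT2 and WT3 were farthest apart, with 3218 genes called, 1542 higher and 1676 lower in WT3. WT2 and WT1 differed in 2850 genes and WT3 and WT1 in 1519. Without WT2 the count was 1221, and without WT3 and WT1 it was 2616 and 3760. DESeq2 called 2483 genes and limma on the deposited RPKM 1454. The share called grew with level, from 13.3% below 1 CPM to 24.6% at 10 to 100 CPM and 44.5% at 100 to 1000 CPM. It was 56.6% at 1000 CPM and above, and counts, which set the precision, grow with level too.

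For genes of at least 10 CPM the median SD between kidneys of one animal was 0.0576 on the log2 scale, and the median component between animals 0.0650. The animal component exceeded the kidney SD in 57.4% of these genes. Their ratio of medians, 1.13, was 0.609 without WT2, 0.948 without WT3 and 1.16 without WT1, so which spread was larger depended on WT2 and on WT3. Circadian, leukocyte and cell cycle lists lay far on the side of animals, while the S1 list, with an animal component of 0 and a kidney SD of 0.220, lay on the side of kidneys.

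**Figure D2:**
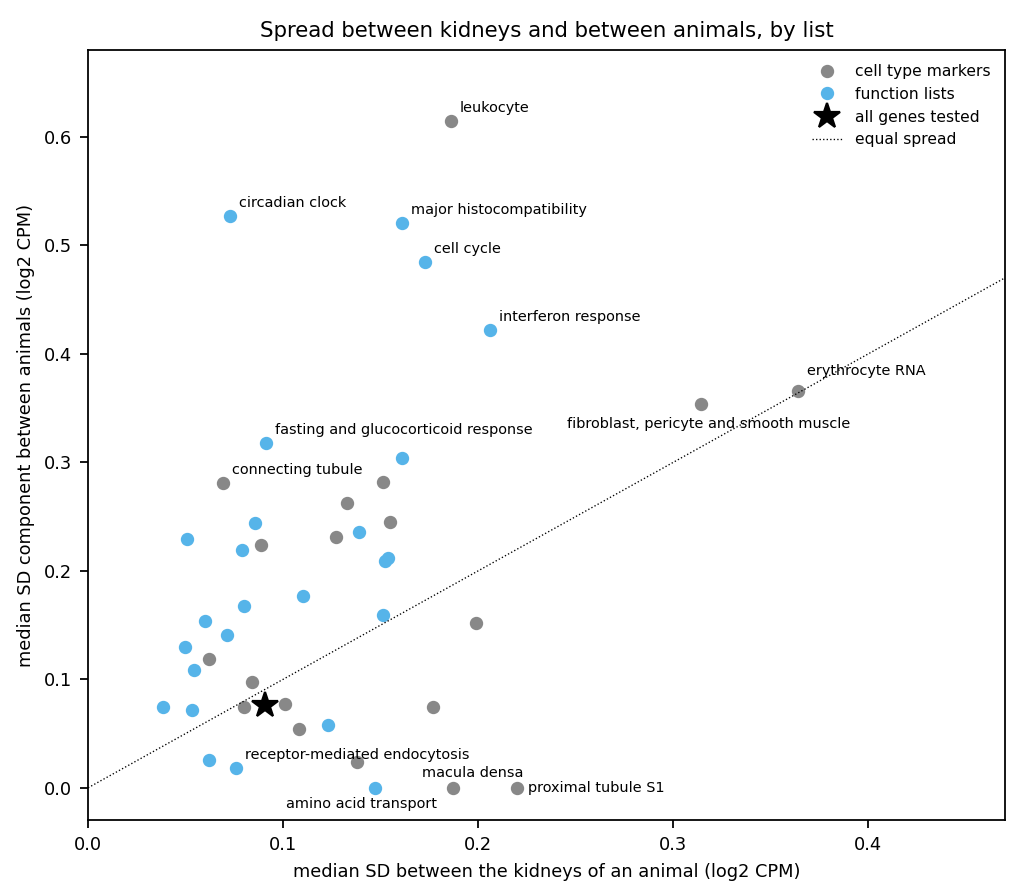
Median SD between kidneys of one animal (x axis) and median component between animals (y axis), both in log2 CPM, for each gene list, with the dotted line of equal spread and a star for all genes tested. The circadian list sits high at 0.527 against a kidney SD of 0.0728, and the S1 list sits at 0 against 0.220.

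Clock genes separated the animals sharply. They form a daily feedback loop in nearly all cells. Arntl pairs with Clock or Npas2 to switch on the Per and Cry genes and Nr1d1. The product of Nr1d1 switches Arntl and Npas2 off, while Dbp, Tef and Hlf carry the rhythm to output genes. The promoters of Ciart, a repressor within the loop, and Per1 hold CACGTG, the E-box that Clock and its partners bind, and that of Per3 holds TTANGTAA, the D-box bound by Dbp, Tef and Hlf (here TTATGTAA). They are shown with these letters in capitals, as above (chr3:95882229-95882478, minus strand; chr11:69098699-69098948, plus strand; chr4:151044666-151044915, minus strand).
Ciart: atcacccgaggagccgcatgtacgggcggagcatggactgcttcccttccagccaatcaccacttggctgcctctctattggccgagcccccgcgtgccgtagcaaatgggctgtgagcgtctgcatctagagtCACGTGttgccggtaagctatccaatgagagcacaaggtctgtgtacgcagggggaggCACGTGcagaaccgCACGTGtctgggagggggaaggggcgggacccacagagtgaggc
Per1: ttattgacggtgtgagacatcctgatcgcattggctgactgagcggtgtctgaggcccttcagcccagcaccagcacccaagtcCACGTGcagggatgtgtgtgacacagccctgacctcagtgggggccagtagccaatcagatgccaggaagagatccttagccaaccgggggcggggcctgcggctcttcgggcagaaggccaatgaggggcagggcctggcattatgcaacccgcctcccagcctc
Per3: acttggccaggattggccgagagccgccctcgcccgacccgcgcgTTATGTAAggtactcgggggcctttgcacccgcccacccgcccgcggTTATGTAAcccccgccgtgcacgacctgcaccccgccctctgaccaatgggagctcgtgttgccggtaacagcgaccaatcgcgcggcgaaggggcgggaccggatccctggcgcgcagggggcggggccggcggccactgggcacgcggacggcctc
Among the 19 promoters that matched 14 of the 15 clock genes, 6 held CACGTG (31.6%, beside 7.15% of all promoters) and 1, that of Per3, held TTANGTAA (5.26%, beside 2.32%). CACGTG also lay in 3 of 13 promoters of the chaperone list (23.1%). TAGGTCA, searched as the core of the ROR element, lay in 1 of the 19, that of Arntl (5.26%, beside 2.61%). These motifs were chosen after the levels were seen.

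Of the 15 clock genes, 14 were called (93.3%, beside 22.9% of all genes tested), with a median log2 ratio of 1.06 beside 0.217. WT2 was highest in 8 of the called genes and WT3 lowest in 8. Dbp had 37.0 and 37.5 CPM in WT1, 105 and 108 in WT2, and 32.3 and 31.8 in WT3. Both WT2 kidneys stood far above the rest (WT2 minus WT1 of 1.52 ± 0.05, WT3 minus WT2 of -1.73 ± 0.05), and the edgeR adjusted p of 1.9e-11 was the smallest of all genes tested. Npas2 ran the opposite way, with 10.2 and 11.2, 3.41 and 3.58, and 15.7 and 15.4 CPM, lowest in WT2 (edgeR adjusted p = 2.39e-08). Arntl followed the same order, with 8.46 and 9.21, 6.13 and 6.44, and 13.2 and 13.1 CPM (edgeR adjusted p = 1.05e-05).

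Per1 had 39.7 and 41.9, 30.4 and 34.4, and 15.3 and 14.7 CPM, lowest in WT3 (WT3 minus WT1 of -1.44 ± 0.07, edgeR adjusted p = 3.44e-08). Per3, in contrast, was high in WT2 alone, with 18.5 and 16.5, 37.8 and 39.1, and 18.4 and 16.6 CPM. Ciart had 0.993 and 1.04, 4.11 and 5.08, and 1.22 and 0.720 CPM, also highest in WT2. Nr1d1, the repressor that acts on Arntl, had 141 and 132, 129 and 130, and 79.5 and 78.3 CPM, with WT3 alone set apart (WT3 minus WT2 of -0.71 ± 0.05, edgeR adjusted p = 8.4e-08). Hlf was the exception, at 175 and 161, 176 and 171, and 168 and 176 CPM (edgeR adjusted p = 0.731). Dbp overlaps Sphk2, Nr1d1 Thra, Tef Gm17597 and Arntl Gm45355 on the opposite strand, and these reads cannot be told apart without a strand setting. Without WT2, 6 of 15 clock genes were called.

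**Figure D3:**
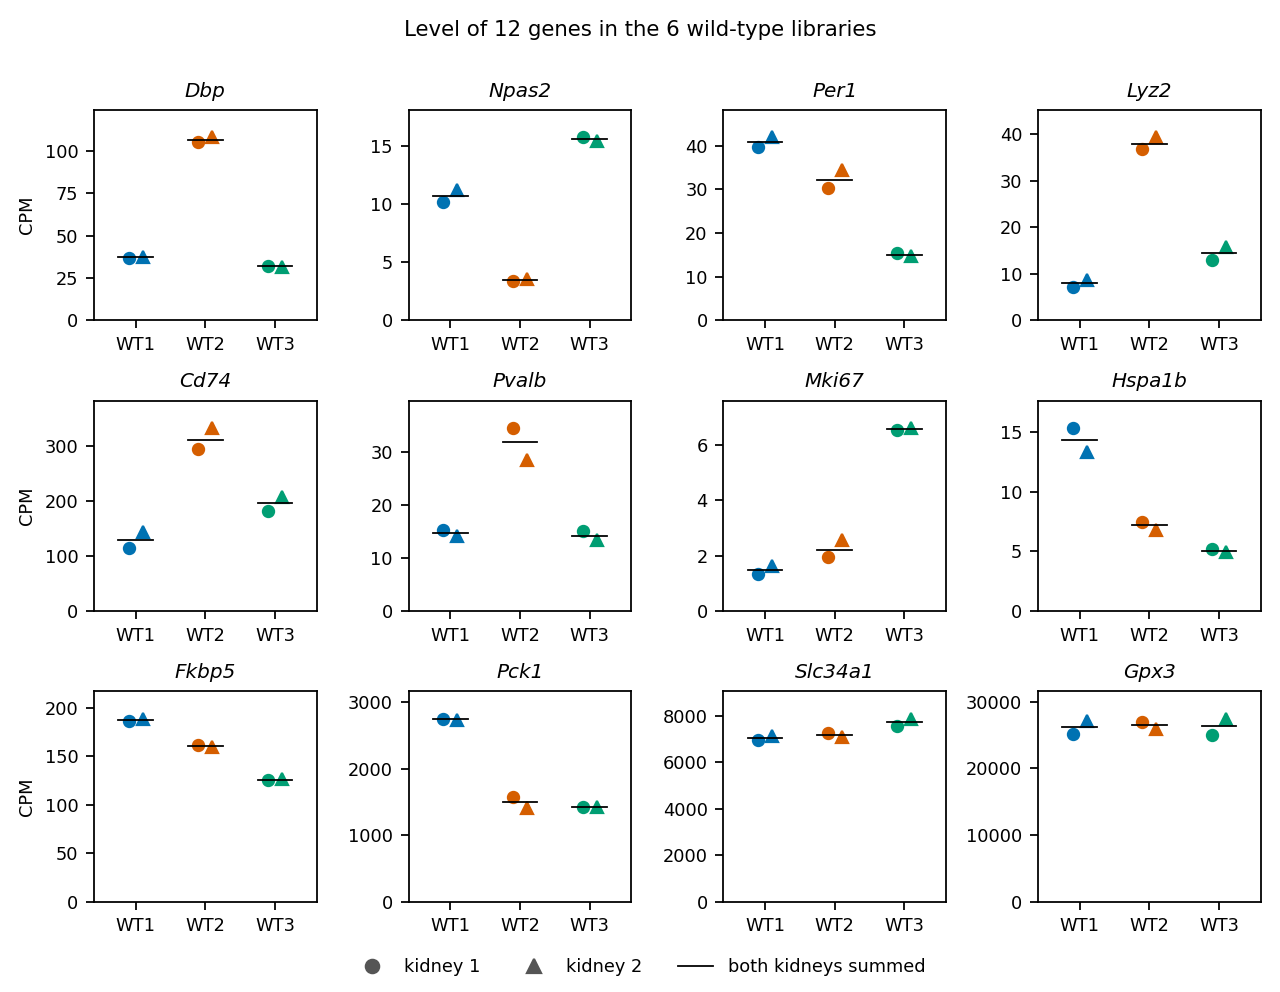
CPM of 12 genes in the 6 libraries, circles for kidney 1, triangles for kidney 2 and a line for both kidneys summed. Dbp, Lyz2, Cd74 and Pvalb are highest in WT2, Mki67 in WT3 and Hspa1b and Pck1 in WT1, while Slc34a1 and Gpx3 are even.

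Leukocyte genes were higher in WT2. All 11 markers tested were called (100%, beside 22.9% of all genes tested), with a median log2 ratio of 1.23 beside 0.217. Of these, 10 were highest in WT2, as were 1815 of all 4226 genes called. Lyz2, a lysozyme of macrophages and neutrophils, had 7.27 and 8.71, 36.7 and 39.3, and 12.9 and 15.9 CPM (WT2 minus WT1 of 2.25 ± 0.11, edgeR adjusted p = 1.4e-07). Ptprc, the CD45 surface protein of leukocytes, had 8.06 and 9.60, 18.5 and 22.5, and 10.9 and 11.3 CPM. The WT2 kidneys lay above the others in both genes, without overlap. Cd74, the invariant chain of class II antigen presentation, had 115 and 145, 296 and 334, and 182 and 208 CPM (edgeR adjusted p = 0.0172, lost without WT2 kidney 2). Csf1r, the receptor of macrophages, was highest in WT3 instead, at 35.1, 41.2 and 47.2 CPM per animal. Without WT2, 2 of 10 markers tested were called, and without WT2 kidney 2, 6 of 11.

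Antigen presentation genes were also higher in WT2. Of 9 histocompatibility genes 8 were called (88.9%, beside 22.9% of all genes tested), all highest in WT2 and lowest in WT1. H2-Eb1, a class II chain, had 41.5 and 52.1, 122 and 134, and 67.9 and 66.0 CPM. Tap1, which loads peptides for class I, had 8.90 and 9.21, 17.0 and 18.6, and 16.0 and 16.2 CPM, so that WT1 was low and the other animals close together. Tap1 overlaps Psmb9 on the opposite strand. Without WT1, 5 of the 9 were called. Of the immunoglobulin genes, which are on no list, 2 of those called are given. Igkc, the constant κ light chain of plasma and B cells, had 89.9 and 88.4, 238 and 266, and 46.3 and 53.6 CPM, with WT3 lowest (WT3 minus WT2 of -2.33 ± 0.07, edgeR adjusted p = 5.13e-08). Ighm, the heavy chain of IgM, ordered the animals otherwise, with 2.58 and 3.82, 28.2 and 26.4, and 12.7 and 18.2 CPM. Both belong to a multigene family, where reads may be split among copies.

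Interferon-response genes were lowest in WT1. Of 10 genes 7 were called (70%, beside 22.9% of all genes tested). All 7 were lowest in WT1, with 3 highest in WT2 and 4 in WT3. Irf7, which amplifies the response, had 4.57 and 6.05, 10.6 and 10.9, and 12.6 and 14.4 CPM (edgeR adjusted p = 1.24e-05), and overlaps Phrf1 on the opposite strand. Cxcl9, a chemokine that interferon γ induces, had 0.278 and 0.463 CPM in WT1, 4.05 and 4.67 in WT2, and 5.12 and 4.92 in WT3 (WT3 minus WT1 of 3.74 ± 0.24, edgeR adjusted p = 3.78e-07). The difference of WT3 minus WT2 in Cxcl9 was 0.21 ± 0.14. Without WT1, 3 of the 10 were called.

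Distal convoluted tubule genes were also higher in WT2. All 8 were called (100%, beside 22.9% of all genes tested), and 7 were highest in WT2. Pvalb, a calcium buffer of the early segment, had 15.4 and 14.3, 34.6 and 28.6, and 15.2 and 13.4 CPM (WT2 minus WT1 of 1.10 ± 0.10, edgeR adjusted p = 6.31e-06). WT1 and WT3 overlapped there, and both lay below each WT2 kidney. Trpm6, the magnesium channel, had 23.6, 35.5 and 25.2 CPM per animal (edgeR adjusted p = 3.9e-05). Stk39, a kinase that activates Slc12a3, was highest in WT3, at 24.8, 29.2 and 30.6 CPM. The list summed to 1306 and 1192 CPM in the kidneys of WT1, 1653 and 1728 in WT2, and 1377 and 1263 in WT3. Without WT2, 1 of 8 was called.

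In the connecting tubule all 5 genes were called (100%, beside 22.9% of all genes tested), 3 of them highest in WT3. Without WT2 or without WT3, 3 of 5 were called. S100g had 254 and 247, 310 and 300, and 382 and 413 CPM, a stepwise order of the animals without overlap (WT3 minus WT1 of 0.67 ± 0.05, edgeR adjusted p = 1.4e-06). Calb1, a calcium buffer like S100g, had 472 and 400, 496 and 449, and 642 and 634 CPM, where WT1 and WT2 overlapped. Klk1 was lowest in WT2, at 887, 745 and 845 CPM. In the thick ascending limb 3 of 8 genes were called (37.5%), with 5 without WT1 kidney 2 and 1 without WT2. Among all genes tested, 24.6% were called at 10 to 100 CPM and 44.5% at 100 to 1000 CPM. Cldn10, a tight-junction protein, had 200, 141 and 178 CPM (edgeR adjusted p = 1.7e-05), and Ptger3, a prostaglandin receptor, 24.4, 26.5 and 43.7 CPM. Among 11 intercalated cell genes, 5 were called (45.5%), 4 of them highest in WT1 and 4 lowest in WT3. That count was 3 without WT3 kidney 2 or without WT1, and 1 without WT3. Slc4a9, an exchanger of base-secreting cells, had 95.6 and 92.2, 87.2 and 84.5, and 69.2 and 62.5 CPM (edgeR adjusted p = 3.19e-05). Among 9 principal cell genes 2 were called (22.2%, close to the 22.9% of all genes tested), Aqp2 and Elf5, the latter at 0.431 CPM or less. The call of Elf5 was lost without either WT2 library, without WT3 kidney 2, by limma and by DESeq2. The principal cell count was 4 without WT1 kidney 1 and 1 without WT3 kidney 2 or without WT3.

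Glomerular and vascular genes leaned to WT2 as well. Of 12 podocyte genes 9 were called (75%, beside 22.9% of all genes tested). All 12 were highest in WT2, as were 6913 of all 18476 genes tested. Tcf21, a transcription factor of podocytes and stroma, had 8.02 and 9.60, 15.1 and 17.8, and 10.9 and 10.4 CPM (edgeR adjusted p = 9.07e-05). Podxl, the negatively charged coat of podocyte foot processes, had 292 and 335, 412 and 374, and 253 and 286 CPM, with WT1 and WT3 overlapping. Without WT2, 1 of 12 podocyte genes was called. All 13 endothelial genes tested were highest in WT2, and 6 were called (46.2%, beside 22.9% of all genes tested). Ehd3, of glomerular endothelium, had 44.0 and 48.5, 63.9 and 58.7, and 41.3 and 38.1 CPM (edgeR adjusted p = 2.65e-05). The endothelial count depended on single libraries, with 12 without WT1 kidney 1, 13 without WT1 kidney 2, 3 without either WT2 library and 4 without WT3 kidney 2. Without WT2 edgeR called 0 of 13, with 2 at an unadjusted p under 0.05, and without WT1 it called 13, while DESeq2 called 10 on all libraries. In the list of fibroblasts, pericytes and smooth muscle 2 of 11 were called (18.2%), with 4 without WT2 kidney 2 and 1 without any single animal, and the collagen gene Col1a1, at 10.2 and 15, 24.6 and 31.9, and 45.5 and 32.9 CPM, was not (edgeR adjusted p = 0.0861).

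Fasting and glucocorticoid-responsive genes were lower in WT3. Of 12 genes 11 were called (91.7%, beside 22.9% of all genes tested). Of these, 8 were highest in WT1, 3 in WT2, and 8 were lowest in WT3. Without WT1, 6 were called and without WT2, 7. Fkbp5, a co-chaperone induced by glucocorticoids, had 186 and 189, 161 and 160, and 125 and 126 CPM, an order of animals without overlap (WT3 minus WT1 of -0.58 ± 0.04, edgeR adjusted p = 1.62e-06). Angptl4, an inhibitor of lipoprotein lipase, had 58.7 and 57.1, 36.4 and 35.0, and 33.7 and 29.5 CPM, highest in WT1 (edgeR adjusted p = 7.79e-07). Pdk4, which spares pyruvate, had 21.1 and 18.6 CPM in WT1 and 8.62 to 11.2 CPM in the other 4 kidneys.

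Glucose synthesis showed called differences in 7 of 8 genes (87.5%, beside 22.9% of all genes tested), in no common order. The share of all genes was 44.5% at 100 to 1000 CPM and 56.6% at 1000 CPM and above. Pck1 had 2757 and 2738, 1568 and 1416, and 1428 and 1424 CPM, high in WT1 alone (WT3 minus WT1 of -0.95 ± 0.06, edgeR adjusted p = 3.65e-08). G6pc, which releases free glucose, had 485 and 548, 317 and 299, and 551 and 638 CPM, low in WT2 instead (edgeR adjusted p = 0.000241). Fbp1, the step between Pck1 and G6pc, was even, at 1094, 1069 and 1083 CPM (edgeR adjusted p = 0.86). The count fell to 4 without either WT2 library or without WT3 kidney 2, and to 3 without WT1 or without WT2. Among 14 fatty acid oxidation genes 7 were called, 6 of them highest in WT1, and among 15 glycolysis genes 8. These shares, 50% and 53.3%, stand beside 22.9% of all genes tested and 44.5% of those at 100 to 1000 CPM. The fatty acid oxidation count was 2 without WT1 and 4 without WT2. The glycolysis count was 5 without WT2 kidney 1, 2 without WT2 kidney 2, 3 without WT1, 2 of 14 without WT2 and 5 without WT3, and it was 5 by DESeq2 and 0 by limma, which had 5 at an unadjusted p under 0.05. Ppara, the transcription factor of fat burning, had 94.0 and 99.8, 67.1 and 65.8, and 67.5 and 71.9 CPM (edgeR adjusted p = 5.05e-06). Slc25a25, a mitochondrial ATP and phosphate carrier, was among the smallest adjusted p-values of all genes, with 251 and 231, 92.2 and 84.5, and 74.2 and 69.4 CPM (edgeR adjusted p = 7.61e-10). It overlaps Naif1 on the opposite strand.

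Carrier and endocytosis genes were called at shares of 14.3% to 53.8% per list, beside 22.9% of all genes tested and 44.5% of those at 100 to 1000 CPM. Of the 10 genes of sodium, phosphate, sulfate and dicarboxylate transport 4 were called, of 8 glucose and monocarboxylate carriers 4, of 11 amino acid carriers tested 3, and of 7 endocytosis genes 1. The organic ion carriers had 7 of 13, all lowest in WT2, and 1 of 13 without WT2. The glucose and monocarboxylate count was 2 without WT2 kidney 1 or without WT1, and 1 without WT2 kidney 2 or without WT2. The amino acid count was 5 without WT1 kidney 2, and without WT2 edgeR called 0, with 2 at an unadjusted p under 0.05. The endocytosis count was 2 without WT3 kidney 2, and without WT2 edgeR called 0, with 1 at an unadjusted p under 0.05. The sodium and phosphate count was 2 without WT1. Slc22a6 had 1872 and 1731, 1403 and 1405, and 1780 and 1734 CPM (edgeR adjusted p = 0.000321), and Slco1a1, an anion carrier, 596 and 505, 305 and 321, and 444 and 463 CPM. WT2 lay below the other animals in both genes without overlap. Clcn5, the endosomal chloride-proton exchanger, had 232 and 223, 186 and 184, and 249 and 264 CPM (edgeR adjusted p = 2.11e-05), while its pathway partners Lrp2 and Cubn, the receptors, were not called. Slc16a1, a lactate carrier, was low in WT2, at 38.7 and 35.4 CPM beside 89.0 to 121 CPM elsewhere, but its call was lost without either WT2 library (edgeR adjusted p = 0.0179 with all libraries).

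Vitamin D and androgen-responsive genes differed among the animals without a common order. Vdr, the vitamin D receptor, had 498 and 473, 310 and 307, and 357 and 344 CPM, highest in WT1 (edgeR adjusted p = 7.31e-07). Cyp24a1, its target that breaks down vitamin D, had 112 and 125, 94.5 and 85.6, and 59.5 and 73.5 CPM. Both were highest in WT1, but Vdr was lowest in WT2 and Cyp24a1 in WT3. Of 9 androgen-responsive genes 6 were called (66.7%, beside 22.9% of all genes tested), 3 highest in WT1 and 3 in WT3. Without WT3 the count was 3. Kap had 14424 and 12246, 12698 and 12683, and 18297 and 16946 CPM, highest in WT3 (edgeR adjusted p = 0.000747, not called by limma on RPKM). Odc1 and Slco1a1 of the same list were highest in WT1. Miox, which oxidises inositol, had 1011 and 1057, 1228 and 1186, and 1478 and 1548 CPM (edgeR adjusted p = 1.02e-05), and Dio1, a thyroid hormone deiodinase, 6.32 and 7.40, 4.83 and 4.43, and 22.4 and 22.0 CPM (edgeR adjusted p = 2.95e-09), both highest in WT3. Cyp4a14, a fatty acid hydroxylase that Ppara induces, had 79.3 and 55, 236 and 223, and 49.9 and 35.3 CPM (edgeR adjusted p = 0.0217), a call lost without either WT2 library or WT3 kidney 2.

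Proliferation and sterol genes were higher in WT3. Of 10 cell cycle genes 7 were called (70%, beside 22.9% of all genes tested), all highest in WT3, at low levels. Mki67, a marker of cycling cells, had 1.35 and 1.62, 1.95 and 2.56, and 6.54 and 6.62 CPM (WT3 minus WT1 of 2.14 ± 0.18, edgeR adjusted p = 1.54e-06), and Top2a, which untangles DNA in mitosis, 0.755 and 1.04, 1.39 and 1.71, and 4.55 and 4.69 CPM. Pcna and Mcm2, which act in DNA replication, were even, at 2.45 to 2.62 and 14.3 to 15.7 CPM per animal. Without WT3 edgeR called 0 of 8, with 3 at an unadjusted p under 0.05. Of 8 sterol genes 4 were called (50%, beside 22.9% of all genes tested), all highest in WT3 and lowest in WT1. Without WT3, 2 were called. Insig1, a sensor of sterols, had 7.94 and 9.02, 9.31 and 9.07, and 17.1 and 16.7 CPM (edgeR adjusted p = 3.73e-06). Cyp51, a sterol demethylase, had 115 and 82.9, 91.2 and 86.4, and 221 and 179 CPM and did not pass (edgeR adjusted p = 0.0576).

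The cytosolic heat shock genes Hspa1a, Hspa1b, Hsph1, Dnajb1 and Hspa8 were highest in WT1. The called chaperones of the endoplasmic reticulum, and Hsp90aa1 of the cytosol, were highest in WT3. Hspa1b, an inducible HSP70 gene, is shown by its promoter, with GAANNTTC, part of the heat shock element, in capitals (chr17:34959239-34959488, minus strand, as above).
Hspa1b: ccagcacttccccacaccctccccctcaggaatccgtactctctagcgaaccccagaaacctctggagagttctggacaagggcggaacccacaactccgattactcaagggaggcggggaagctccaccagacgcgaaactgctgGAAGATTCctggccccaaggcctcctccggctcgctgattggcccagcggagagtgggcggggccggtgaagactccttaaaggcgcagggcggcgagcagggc
These letters lay in 38.5% of 13 promoters of the chaperone list, which matched 10 of its 13 genes, and in 7.86% of all promoters, a search chosen after the levels were seen. Hspa1b had 15.3 and 13.3, 7.50 and 6.79, and 5.21 and 4.92 CPM, an order of animals without overlap (WT3 minus WT1 of -1.50 ± 0.11, edgeR adjusted p = 1.27e-06). Its near-identical neighbour Hspa1a had 11.6 and 7.59, 4.69 and 5.05, and 2.94 and 3.08 CPM, and reads of the pair may be split. Dnajb1, the HSP40 partner, had 75.6 and 72.6, 57.3 and 53.2, and 47.2 and 43.2 CPM. Of the 13 chaperone genes 9 were called (69.2%, beside 22.9% of all genes tested), 5 highest in WT1 and 4 in WT3. Among the last was Calr of the endoplasmic reticulum at 625, 580 and 714 CPM. The count was 5 without WT2, without WT3 and by limma. The calls of the endoplasmic reticulum chaperones Hspa5 and Hsp90b1 held in 6 and 9 of 14 settings, and that of Hspa5 was lost on leaving out each single library. Of 10 immediate early genes 6 were called (60%, beside 22.9% of all genes tested), all lowest in WT3, and without WT2 3 were. Nr4a1, a nuclear receptor induced within minutes of a stimulus, had 7.50, 4.78 and 3.88 CPM per animal (edgeR adjusted p = 0.00062). The tubular injury gene Havcr1 stayed low, at 2.66 ± 1.63 CPM, and 2 of the 7 injury genes tested were called (28.6%, beside 22.9% of all genes tested). That count was 6 of 8 without WT1 kidney 1, 4 of 7 without WT1 kidney 2 or without WT1, and 1 of 8 without WT2 kidney 2. Without WT2 edgeR called 0 of 7, with 2 at an unadjusted p under 0.05.

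**Figure D4:**
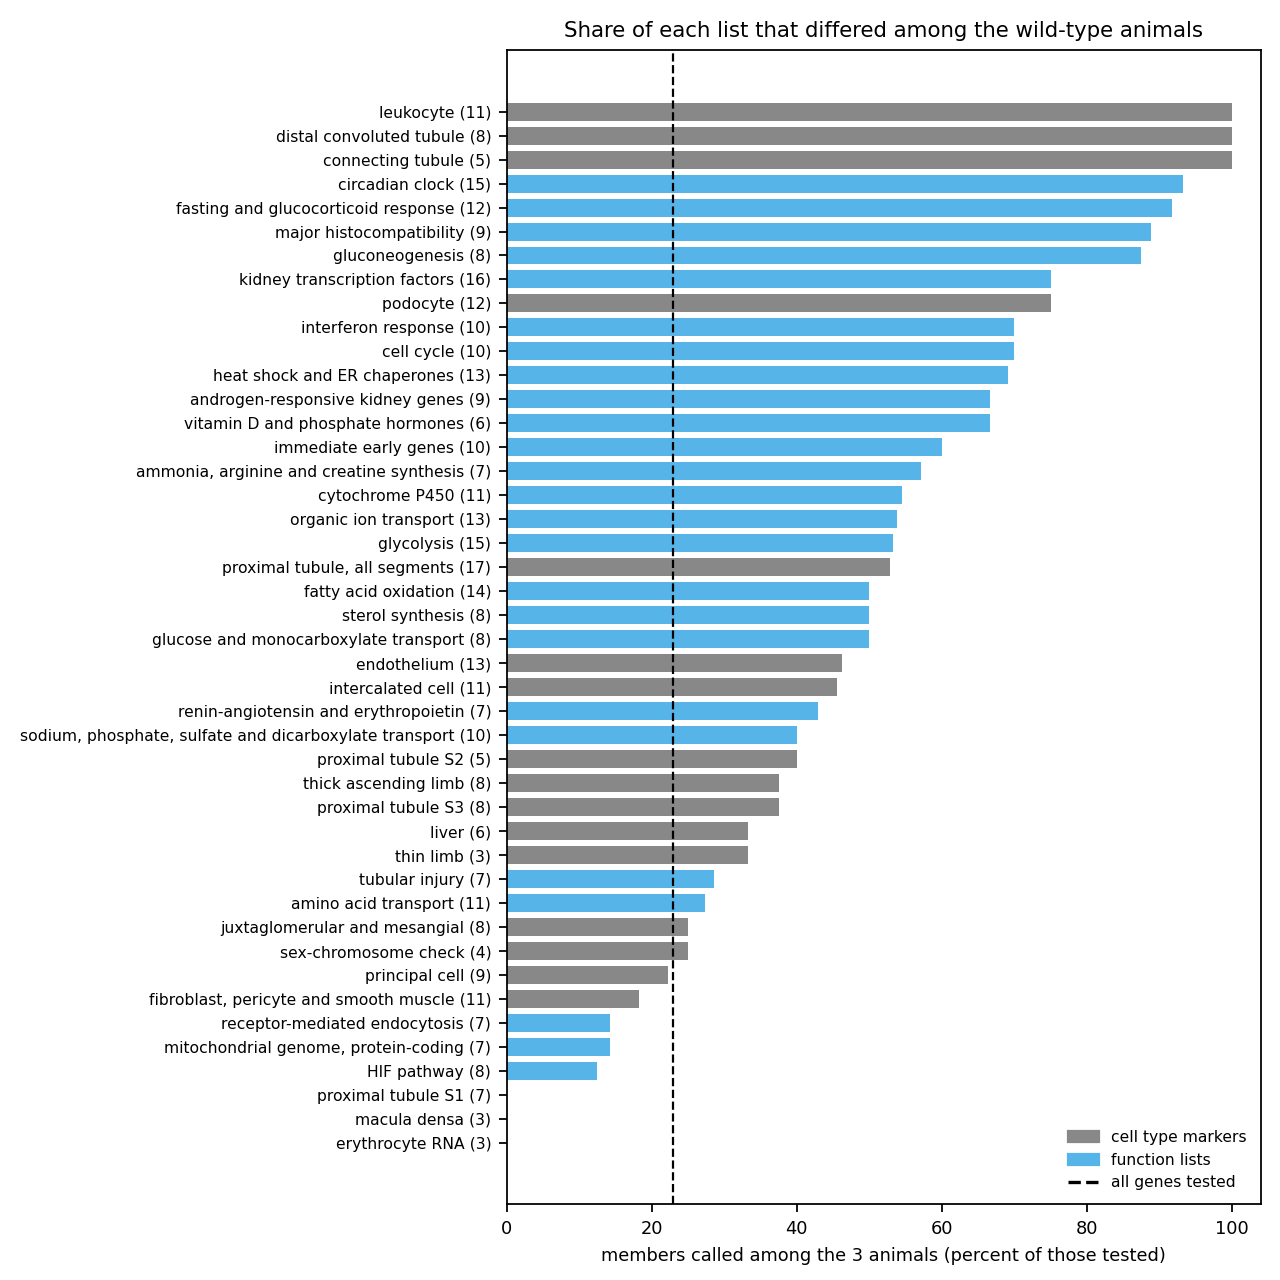
Percent of tested genes of each list with at least 3 tested (number in parentheses) that were called among the 3 animals (edgeR adjusted p under 0.05), with a dashed line at the 22.9% of all genes tested. Leukocyte, distal convoluted tubule and connecting tubule lists reach 100%, and the S1 list is at 0%.

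At the even end stood Gpx3, with 25231 and 27117, 26960 and 25966, and 24956 and 27499 CPM, a mean of 26334 ± 169 CPM (edgeR adjusted p = 0.983). Among genes of at least 100 CPM the smallest spread belonged to Nptn, a cell adhesion protein, at 108 ± 0.0794 CPM over animals, with kidneys from 106 to 110 CPM. Agrn, Dcaf11, Phb2 and Polr2m also had small spreads, at 142 to 143, 190 to 191, 131 to 132 and 224 to 225 CPM per animal.

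Kidney 2 was also compared with kidney 1, blocking on the animal. Of 18090 genes tested, 1 was called (0.00553%), and 926 had an unadjusted p under 0.05. The called gene, ENSMUSG00000073474, has no symbol in the name table. It had 22.4 and 13.7 CPM in WT1, 22.8 and 16.0 in WT2, and 19.1 and 12 in WT3, lower in kidney 2 of every animal (log2 difference -0.62 ± 0.07, edgeR adjusted p = 0.00293). DESeq2 also called 1 gene. The count depended on the setting, with 141 calls without a filter on low counts, 88 without WT2 and 31 without WT3.

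Within an animal, genes of some segments shifted between the kidneys together, and for S1, podocytes, S3 and the thick ascending limb the direction differed between mice. All 7 S1 genes were higher in kidney 2 of WT1 and of WT3 and lower in kidney 2 of WT2, with median log2 differences of 0.39, 0.38 and -0.12. Over all genes of at least 10 CPM, 47.1%, 46.6% and 49.4% were higher in kidney 2 of WT1, WT2 and WT3. S1 genes summed to 1922 and 2460, 2285 and 2116, and 1858 and 2453 CPM. The lactate carrier Slc5a12, for example, had 302 and 416, 384 and 343, and 228 and 341 CPM. Of 10 podocyte genes at this level, 10, 1 and 8 were higher in kidney 2, the same order as S1.

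S3 and the thick ascending limb went against S1. Of 6 S3 genes, 0, 5 and 0 were higher in kidney 2, and of 6 thick ascending limb genes 0, 4 and 1. S3 genes summed to 6323 and 5333, 4417 and 4537, and 5281 and 4768 CPM, and those of the thick ascending limb to 4466 and 3395, 4972 and 5229, and 5354 and 4506 CPM. Slc12a1, the salt transporter blocked by loop diuretics, had 523 and 363, 460 and 510, and 594 and 486 CPM. By summed CPM, the kidney with more S1 and podocyte RNA thus had less S3 and thick ascending limb RNA. In WT2 this was slight, with median log2 differences of 0.025 for S3 and 0.081 for the thick ascending limb. These medians were -0.289 and -0.335 in WT1 and -0.149 and -0.183 in WT3. In WT2 principal and intercalated cell genes also fell in kidney 2, by medians of -0.12 and -0.152, much as S1 genes did. Glomeruli and S1 lie in the outer cortex, and S3 and the thick ascending limb reach deeper, and no source used here gives the depth of each slice. These shifts are described without a test. Of 8 distal convoluted tubule genes 2, 6 and 0 were higher in kidney 2. Of 5 connecting tubule genes 0, 0 and 1 were higher, of 6 principal cell genes 1, 0 and 1, and of 9 intercalated cell genes 1, 1 and 1. Most genes of these last 3 lists were thus lower in kidney 2 of every animal.

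Vessel and stroma genes followed another pattern. Of 11 endothelial genes, 11, 8 and 0 were higher in kidney 2, and of 10 genes of fibroblasts, pericytes and smooth muscle 9, 6 and 2. All 3 erythrocyte genes at this level were higher in kidney 2 of every animal, and histocompatibility genes in 8, 8 and 7 of 8. Hbb-bs, a β-globin, had 45.6 and 65.1, 68.1 and 80.5, and 79.1 and 133 CPM.

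**Figure D5:**
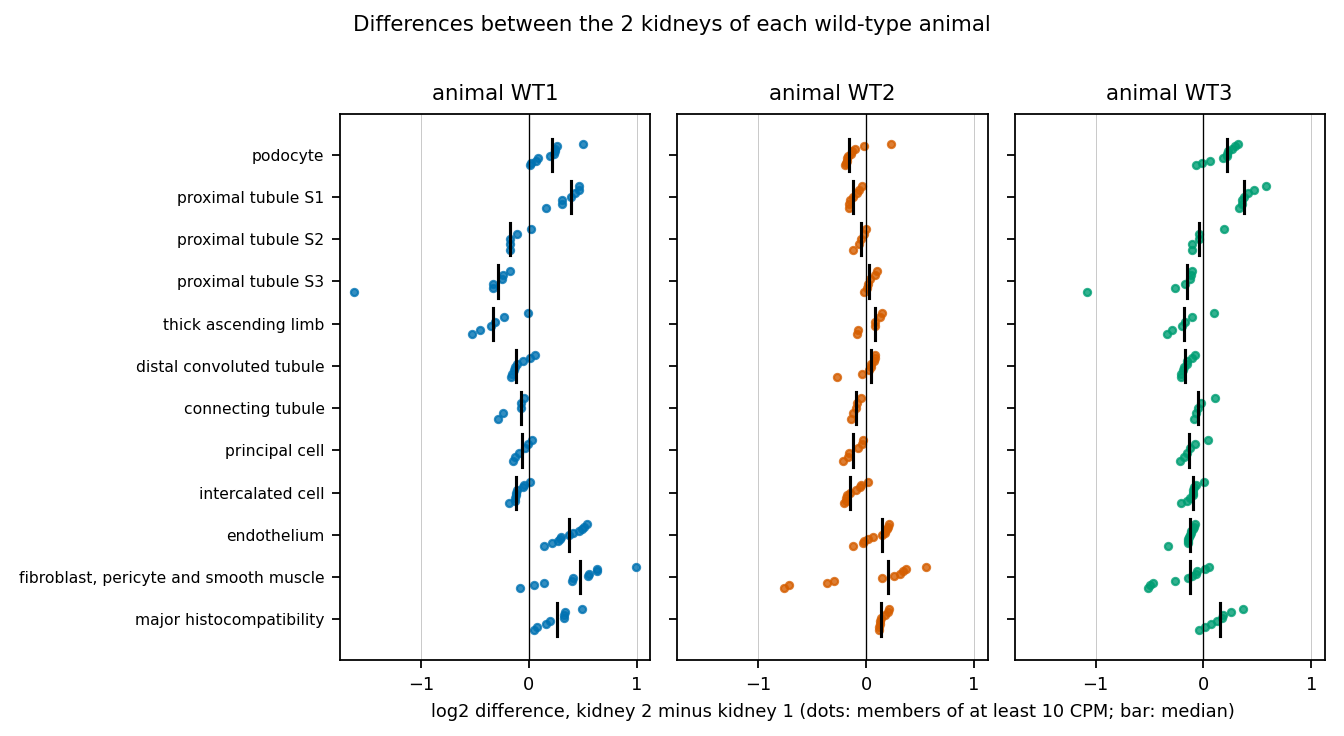
Log2 CPM of kidney 2 minus kidney 1 for each member of 12 gene lists in WT1, WT2 and WT3, with a bar at the median. S1 and podocyte genes lie above 0 in WT1 and WT3 and mostly below 0 in WT2, and S3 and thick ascending limb genes lie mostly the other way.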

How the data were processed

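Libraries of 6 wild-type outer cortex slices were made with the TruSeq RNA kit of Illumina, as the labels' protocols state. The genome build was mm9, per the submitters' processing notes, while no source used here names the aligner, counting program, annotation or strand setting. The deposited table holds raw counts for 27412 Ensembl IDs, per the file headers, and RPKM. In the RPKM of the authors each count carries about 1 added read, as the values show, and they give 1 implied length per gene, the same in all libraries within 8.9e-06. Symbols came from GENCODE M21, which matched 24630 IDs. The others held 1.18% of counts. Promoters came from the RefSeq table for GRCm38.p6. No coordinates of mm9 were used.

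Kidneys were summed per animal for levels. Differences among animals were tested on the 6 libraries with edgeR 4.0.16 (R 4.3.3) and its quasi-likelihood F test (filterByExpr, TMM, two-sided, Benjamini-Hochberg adjusted threshold 0.05), with the kidneys of an animal as replicates. A list gene counts as highest or lowest in an animal by its summed CPM. Kidney 2 was tested against kidney 1 with the animal as a block. Spread used log2 CPM with a prior count of 2 for genes of at least 10 CPM. Figures and summaries used Python 3.11.15. The test among animals was checked on simulated counts.

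The 48 gene lists, the named genes and the members were chosen with earlier results of these data known. Named were the 6 segment markers, the genes with the highest levels, from each list the highest, the lowest and up to 4 called members, the smallest adjusted p-values, the largest ratios and the smallest and largest spreads. List members that depart from their list's pattern, Slc5a12, Slc12a1, Hbb-bs and the motifs other than those for HNF1 and HNF4 were picked after their values were seen. Alternatives were RLE factors, unadjusted library sizes, no count filter, a minimum mean of 1 CPM, DESeq2 1.42.0, limma 3.58.1 on RPKM, the kidney number as a block, and each library and animal left out. The longest reference transcript as gene length was added after seeing the data.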

Additional observations from a re-analysis of the deposited data

Results flagged for a closer look

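Among 48 lists and 320 genes, a library far from the other 5 was looked for with Dixon's criterion at 0.625 of the range, and 14 genes and no list met it. Chance flags about 1 in 20 groups, a rate that does not strictly hold here because kidneys of an animal are not independent.

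Of the 14, 8 stood apart in WT1 kidney 2. It was the highest for the fat genes Adipoq (2.312 CPM), Cidec (4.663 CPM) and Lep (1.927 CPM) and for Krt20, a keratin of injured tubules and urothelium (1.118 CPM beside at most 0.288). Krt5 and Sptssb, at 0.07708 CPM, and mt-Co3, at 0.03854 CPM, rest on 1 or 2 reads. Slc16a9, a carnitine carrier, was the lowest there, at 155.4 CPM beside 175.9 to 185.5 CPM.

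In WT3 kidney 1, Bcat1 had 4.852 CPM beside at most 1.354, and Slc22a19 20.93 CPM beside at most 11.29. In WT3 kidney 2, Agtr1a, the angiotensin receptor, had 68.68 CPM beside 61.72 to 62.87, and the β-globin gene Hbb-bt 25.03 CPM beside at most 14.93. Atp6v1g3, a proton pump subunit of intercalated cells, was lowest in WT2 kidney 2, at 39.82 CPM beside 43.13 or more. Ahsg in WT2 kidney 1, at 0.02667 CPM, rests on 1 read.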

How the results depend on the processing

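The count of genes that differ among the animals, 4226, stayed within 1.5 times under RLE factors (4269), library size alone (4419), no filter (5590) and a mean of at least 1 CPM (3815). DESeq2 gave 2483, limma on RPKM 1454 and a log2 ratio of at least 1 gave 724. Leaving out 1 library gave 2267 (without WT2 kidney 2) to 4511 (without WT1 kidney 2), with 2582 without WT2 kidney 1. Leaving out 1 animal gave 1221 (without WT2) to 3760 (without WT1), with 2616 without WT3. Fewer libraries give the test fewer degrees of freedom, and the cause of these changes in count was not tested. The 3 counts between pairs of animals stayed within 1.5 times under RLE factors, library size alone, a mean of at least 1 CPM and the kidney block. Pairs were not counted with DESeq2, limma, no filter, or a library or animal left out. Kidney differences correlated weakly between animals, at 0.132, 0.11 and -0.101 over 10127 genes. Some lists, such as intercalated cell and erythrocyte genes, still shifted alike in every animal. With the kidney number as a replicate block 4355 genes were called. Some list counts changed with it, as for erythrocyte genes (3 of 3, beside 0 in the main test). Others, as for podocytes (9 of 12) and endothelium (6 of 13), did not. For kidney 2 against kidney 1, no filter gave 141 calls, the fit without the replicate block 0 (131 at an unadjusted p under 0.05) and leaving out an animal 1 to 88, with 88 without WT2 and 31 without WT3. The proximal share was 70.22% by medians, 67.84% without the highest markers, 79.54% on the reference length and 78.11% to 79.47% without single samples. The ratio of animal to kidney spread was 0.609 to 1.16 without single animals, 1.69 for genes of at least 100 CPM and 0.931 from 1 CPM. Of 191 named genes called, 113 kept call and direction in every setting in which both of their outer animals were present, and none reversed. The other 78 lost the call at least once, 69 of them or fewer under any single setting. Of 320 named gene levels, 238 moved by over 1 SD with the reference length. Depth limits genes near 0.1 CPM, where 3 reads correspond to 0.0816 to 0.117 CPM.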

Other observations

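Some of the smallest adjusted p-values among the animals belonged to genes on no list. Ppard, a fatty acid receptor, had 54.0 and 52.5 CPM in WT1, 25.1 and 26.1 in WT2, and 73.4 and 72 in WT3 (edgeR adjusted p = 9.95e-10), low in WT2. Id3, an inhibitor of transcription factors of the helix-loop-helix class, had 32.0 and 37.5, 51.6 and 53.3, and 17.9 and 18.0 CPM (edgeR adjusted p = 1.68e-08), and Bhlhe40, a repressor tied to the clock, 94.6 and 89.5, 119 and 117, and 58.1 and 54.7 CPM. Both were highest in WT2 and lowest in WT3. Tfrc, the transferrin receptor that takes up iron, had 93.4 and 84.4, 128 and 119, and 189 and 194 CPM (edgeR adjusted p = 2.39e-08), and Ccl28, an epithelial chemokine, 43.1, 40.6 and 79.4 CPM per animal, both highest in WT3. Entpd4b and Tmem267 also ranked here, highest in WT1, but Entpd4b has a near-identical paralog and Tmem267 overlaps other genes on the opposite strand.

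Lists not described so far are given by their counts. Of 16 kidney transcription factors 12 were called (75%, beside 22.9% of all genes tested), 7 of them highest in WT1 and 7 lowest in WT3. Without WT1 or without WT2 the count was 7. Nr1h4, the bile acid receptor, had 155 and 158, 138 and 135, and 105 and 113 CPM (edgeR adjusted p = 1.24e-05). Hnf4a, a master factor of the proximal tubule, had 1106, 1220 and 1034 CPM per animal. Of 7 genes of ammonia, arginine and creatine synthesis 4 were called (57.1%), and 2 without WT3 kidney 2 or without WT2. Glul, glutamine synthetase, had 285 and 268, 426 and 412, and 332 and 334 CPM (edgeR adjusted p = 2.6e-06). Of 7 renin-angiotensin and erythropoietin genes tested 3 were called (42.9%), all highest in WT3 (1 without WT2). Among them was Mas1, a receptor of angiotensin fragments, at 1.88, 1.23 and 3.80 CPM. Ren1 was not called, at 98.2 ± 5.93 CPM (edgeR adjusted p = 0.927). Of 11 cytochrome P450 genes 6 were called, of 8 juxtaglomerular and mesangial genes 2 and of 7 mitochondrial genes tested 1, beside 22.9% of all genes tested. The P450 count was 1 without WT2 kidney 1, 2 without WT2 kidney 2, 3 without WT3 kidney 1 and 1 without WT2. The juxtaglomerular and mesangial count was 1 without either WT2 library, and without WT2 edgeR called 0, with 0 at an unadjusted p under 0.05. All 7 mitochondrial genes were called without WT1 kidney 1, 3 without WT1 kidney 2 and 6 without WT1. Without any single WT2 or WT3 library edgeR called 0 of the 7, with 0 to 2 at an unadjusted p under 0.05.

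The largest spread between kidneys of one animal among genes of at least 10 CPM, picked after the values were seen, was in Cyp7b1, an oxysterol hydroxylase of S3 cells in male mice. It had 20.1 and 6.51 CPM in WT1, 5.36 and 5.49 in WT2, and 41.5 and 19.7 in WT3. Kidney 1 was higher in WT1 and WT3 and level with kidney 2 in WT2. Mep1b, a brush border protease, had 45.5 and 24.2, 26.6 and 27.5, and 84.8 and 60.1 CPM, in the same pattern. The stromal genes Prelp (15.8 and 31.9, 39.4 and 57.3, and 39.5 and 32.5 CPM) and Dcn (7.67 and 15.3, 18.4 and 22.0, and 23.4 and 21.7 CPM) were higher in kidney 2 of WT1 and WT2 and lower in that of WT3.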
